A study of Mus musculus with 4 samples.

Results

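The chemokines Cxcl9, Cxcl10, Cxcl16, Ccl17 and Ccl22 and the receptors Cxcr3, Cxcr6 and Ccr4 were followed through single-cell RNA sequencing of malignant mouse ascites. These 8 genes were chosen as the ligand and receptor pairs by which T cells are drawn into tissue, and all 8 were among the 29835 gene symbols listed in the files. All mice were of the C57BL/6 strain (C57BL/6NCrl, female, per the methods of the study) and carried intraperitoneal ID8-Trp53-/- cells, a mouse ovarian surface epithelial line in which Trp53 was deleted, so that every group, controls included, shared this deletion. Treatment started after 7 days of engraftment and was given 2 times a week until about 3 mL of ascites was present. The control group received DMSO, the vehicle, and an IgG2a isotype antibody. The BTYNB group received 50 mg/kg of BTYNB, a small molecule inhibitor of the RNA-binding protein Igf2bp1, with the isotype antibody. The anti-PD-1 group received the blocking antibody clone RMP1-14 with DMSO, and the combination group received BTYNB with the blocking antibody. Antibodies were given at 100 ng per dose according to the labels, while the methods state other amounts for both agents.

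Cells of the animals of a treatment were pooled into 1 library, so there were 4 libraries, 1 per group, without replicates. The comparisons below therefore carry no test and no p-value. The intervals below are 95% intervals of the UMI counts (unique molecular identifiers, 1 per captured transcript). They cover counting error only and are too narrow where few cells hold many of the UMIs. Of 46342 deposited cells, quality limits left 7834 from control, 18283 from BTYNB, 12019 from anti-PD-1 and 7042 from the combination. The smallest deposited cell had 4438, 869, 3533 and 5115 UMIs in these libraries, and 69.8% of the BTYNB cells lay under the smallest combination cell. The libraries shared between 0 and 4 cell barcodes pairwise.

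CXCL9 and CXCL10 are chemokines induced by interferons, and both bind CXCR3, a receptor of activated T cells and NK cells. CXCL16 is made as a membrane-bound protein, can be shed by the protease ADAM10, and is the ligand of CXCR6, a receptor of effector and tissue-resident T cells. CCL17 and CCL22 are made by dendritic cells and macrophages and bind CCR4, which is found on regulatory and other helper T cells. In tumours the first pair is known for the recruitment of cytotoxic T cells, and CCL22 for that of regulatory T cells.

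Cells were gated by their UMIs. Tumour cells had at least 5 UMIs of Krt7, Krt8, Krt18, Krt19 and Wt1 together and no Ptprc. Myeloid cells had at least 3 UMIs of Lyz2 and Csf1r and at most 2 keratin UMIs, and were split by at least 3 UMIs of Retnla, a marker of alternatively activated macrophages. Mature dendritic cells (mature DC) had Ccr7 and at least 2 UMIs of Fscn1, T cells at least 2 UMIs of Cd3d, Cd3e and Cd3g, and NK cells at least 2 UMIs of Ncr1, Klrb1c and Klre1 with at most 1 Cd3 UMI. A B cell gate (at least 3 UMIs of Cd79a, Cd79b and Ms4a1, at most 1 Cd3 UMI) and a gate for type 1 conventional dendritic cells (cDC1, at least 2 UMIs of Xcr1 and Clec9a) were added. A cell could pass more than 1 gate. The tumour gate held 7114, 3606, 10923 and 4369 cells in control, BTYNB, anti-PD-1 and combination, and the myeloid gate held 292, 3134, 384 and 1258. Mature DC were few in control (18 cells) and anti-PD-1 (6 cells) against 365 under BTYNB and 115 under combination. T cells numbered 22 in control, 2481 under BTYNB, 30 under anti-PD-1 and 158 under combination. These counts depend on the smallest cell kept in each library. Among cells with at least 5115 UMIs, T cells numbered 18, 241, 14 and 158 in the same order, and mature DC 14, 124, 4 and 115. Much of the excess of BTYNB over combination in these 2 gates thus lay in cells under this floor. Markers that the gates did not use were summed in each gate. Tumour markers ran from 545 to 734 CPM in the tumour gate and from 19.0 to 84.1 CPM in the myeloid gate over the libraries, although Epcam stayed between 0.0800 and 0.230 CPM in the tumour gate. Myeloid markers ran from 1798 to 2491 CPM in the myeloid gate and from 11.8 to 27.1 CPM in the tumour gate. T markers in the T gate were 590, 2904, 417 and 1021 CPM in control, BTYNB, anti-PD-1 and combination, beside 681, 156, 632 and 364 CPM of tumour markers, which thus exceeded them in control and anti-PD-1. Many cells of the small gates also passed another gate. In control, anti-PD-1 and combination this held for 59.1%, 40.0% and 41.1% of T cells, 68.6%, 92.7% and 58.5% of B cells, and 50.0%, 50.0% and 34.8% of mature DC. Under BTYNB the shares were 5.32%, 8.89% and 14.2%, but 41.9% for cDC1 cells.

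The promoters of Cxcl9 and Cxcl10 and of Ccl17 and Ccl22 are shown, since the transcripts of each pair were found together in the same cells and interferon, NF-kappa-B and STAT6 are known to act on such genes through short DNA motifs. Each run is the 250 bases before the transcription start on the strand of the gene, from RefSeq on build GRCm38.p6, in which 7 of the 8 genes had an entry. The submitters' processing notes name GRCm39, so these coordinates do not apply to the matrices. Capitals mark matches, searched on both strands, to an interferon response element core (GAAANNGAA), a STAT6 site (TTCNNNNGAA) and a kappa-B site (GGGNNTTCC). Cxcl9 lies at chr5:92328080-92328329 (minus strand), Cxcl10 at chr5:92348890-92349139 (minus strand), Ccl17 at chr8:94810203-94810452 (plus strand) and Ccl22 at chr8:94745434-94745683 (plus strand).
Cxcl9: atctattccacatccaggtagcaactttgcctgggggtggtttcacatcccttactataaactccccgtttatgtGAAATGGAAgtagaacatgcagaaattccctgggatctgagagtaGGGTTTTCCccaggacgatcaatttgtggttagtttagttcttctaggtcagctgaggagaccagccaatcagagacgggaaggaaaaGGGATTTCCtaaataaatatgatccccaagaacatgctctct
Cxcl10: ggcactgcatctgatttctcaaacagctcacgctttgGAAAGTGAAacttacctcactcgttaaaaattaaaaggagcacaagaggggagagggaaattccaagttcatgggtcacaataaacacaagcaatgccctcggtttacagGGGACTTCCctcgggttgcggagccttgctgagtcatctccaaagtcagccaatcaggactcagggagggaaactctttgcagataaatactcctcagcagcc
Ccl17: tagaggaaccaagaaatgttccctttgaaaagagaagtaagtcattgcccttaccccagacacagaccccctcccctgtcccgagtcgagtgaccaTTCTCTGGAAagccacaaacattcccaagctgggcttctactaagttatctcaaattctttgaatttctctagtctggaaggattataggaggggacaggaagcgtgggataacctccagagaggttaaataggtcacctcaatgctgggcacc
Ccl22: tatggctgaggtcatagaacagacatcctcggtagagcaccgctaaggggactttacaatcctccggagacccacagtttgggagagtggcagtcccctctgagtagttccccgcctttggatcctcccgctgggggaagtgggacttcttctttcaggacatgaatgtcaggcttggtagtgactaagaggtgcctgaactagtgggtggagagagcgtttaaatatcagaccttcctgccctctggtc

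The windows of Cxcl9 and Cxcl10 lie 20.6 kb apart and each held 1 interferon response element core and at least 1 kappa-B site. In Cxcl9 these were GAAATGGAA, 175 to 167 bases before the start, and the kappa-B sites GGGTTTTCC and GGGATTTCC, the second only 42 to 34 bases before the start. In Cxcl10 they were GAAAGTGAA, 213 to 205 bases before the start, and GGGACTTCC, 103 to 95 bases before it. The Ccl17 window held a STAT6 site, TTCTCTGGAA (154 to 145 bases before the start). No matches overlapped. The Ccl22 window, 64.5 kb from that of Ccl17, held none of these motifs, nor did those of Cxcr3, Cxcr6 and Ccr4. Of 32851 windows of this length in the reference table, 7.13% held the interferon response element core, 4.98% the kappa-B site and 5.85% the STAT6 site, so each is common by itself, and a match is only a description of the letters.

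The ligands differed in the cells that held them, as the plot of levels by gate shows. Cxcl9 was far higher in myeloid than in tumour cells, with log2 ratios of 4.64, 4.66, 6.32 and 4.52 across the libraries in the order of the gates above. Cxcl10 was at like levels in both in control and anti-PD-1 (intervals of the ratio took in 0) and lower in myeloid cells under BTYNB (-1.66) and combination (-1.17). Cxcl16, Ccl22 and Ccl17 were highest in mature DC in the 2 libraries with over 100 of these cells. Under BTYNB, where T cells were numerous, Cxcr6 and Ccr4 were highest in T cells, and Cxcr3 in cDC1 cells, followed by T and NK cells. Levels are given as UMIs per 1000000 UMIs of the gated cells (CPM).

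**Figure D1:**
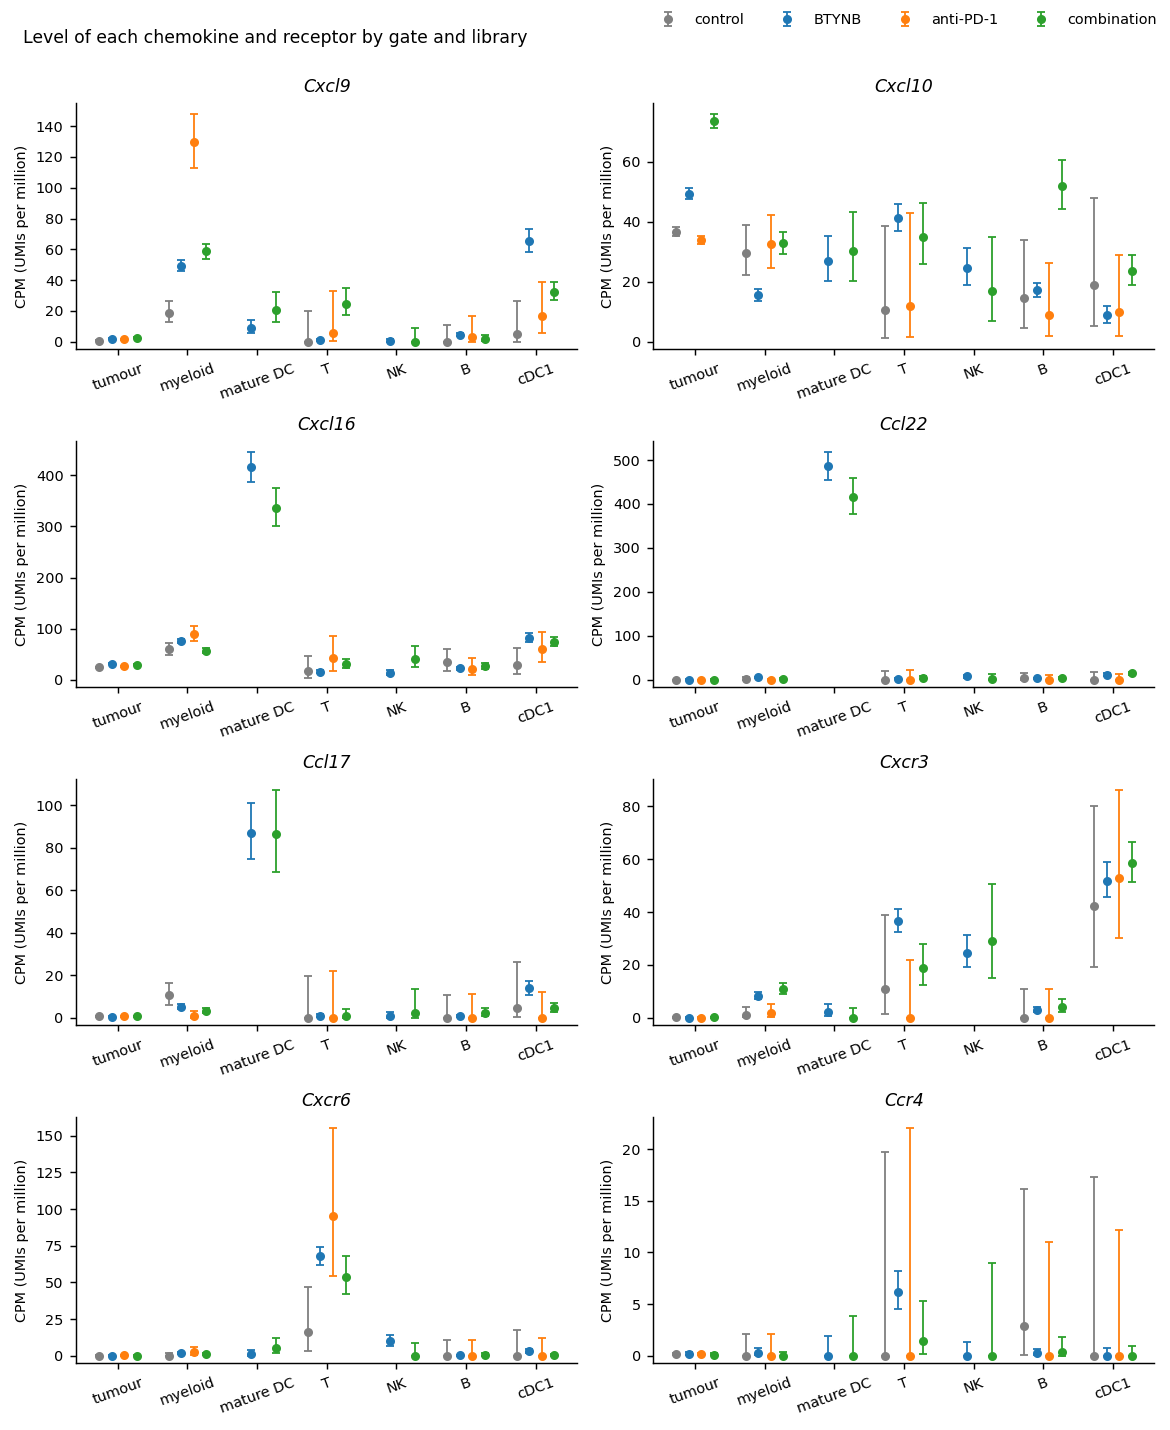
Level (CPM, linear axis, 95% counting interval) of the 8 genes in 7 gates for the 4 libraries, shown where a library had at least 20 cells in the gate. Cxcl9 in myeloid cells ran from 18.6 in control to 129 under anti-PD-1, and Cxcl10 in tumour cells was highest under combination at 73.6.

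Cxcl9 in myeloid cells was 18.6 CPM in control (95% interval 12.7 to 26.3, 32 UMIs), 49.4 under BTYNB (46.1 to 52.9), 129 under anti-PD-1 (113 to 148) and 58.7 under combination (53.9 to 63.7). By summed UMIs all 3 treated libraries thus lay above control, and anti-PD-1 above both libraries with BTYNB. The log2 ratio was 1.41 (0.90 to 1.97) for BTYNB to control, 2.80 (2.26 to 3.38) for anti-PD-1 to control and -1.14 (-1.37 to -0.91) for combination to anti-PD-1. Combination to BTYNB gave 0.25 (0.09 to 0.40), a sign that turned to -0.19 when only cells with at least 5115 UMIs were kept in each library. The 4 ratios share libraries and are not independent of each other.

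The transcript was concentrated in few cells. A Cxcl9 UMI was found in 4.11% of myeloid cells in control, 3.22% under BTYNB, 12.0% under anti-PD-1 and 7.63% under combination, and 1 BTYNB cell alone held 90 UMIs. The 3 myeloid cells with most Cxcl9 held 43.8%, 28.7%, 34.1% and 23.4% of its UMIs in the gate. With these cells left out, the log2 ratios were 1.75 for BTYNB to control, 3.03 for anti-PD-1 to control and -0.92 for combination to anti-PD-1. Control lost the largest share of its UMIs, so both ratios to control had to rise and their directions are not tested by this. The direction of combination to anti-PD-1 was kept, although anti-PD-1 lost the larger share of the 2. Neutrophil markers in the myeloid gate summed to 1866 CPM under BTYNB, against 409 in control, 51.1 under anti-PD-1 and 37.6 under combination. Without the 3.45% of BTYNB myeloid cells that carried at least 3 UMIs of S100a8 and S100a9, the level there was 50.4 CPM and the ratio to control 1.42.

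Myeloid Cxcl9 was found almost wholly in cells without Retnla. In Retnla- cells it was 21.2 CPM in control, 51.8 under BTYNB, 136 under anti-PD-1 and 68.6 under combination. In Retnla+ cells, of which there were 53, 99, 20 and 186, it was 6.65 CPM in control (2 UMIs), 0 under BTYNB, 0 under anti-PD-1 and 6.52 under combination (10 UMIs). For combination the log2 ratio of Retnla- to Retnla+ cells was 3.4 (2.51 to 4.46). For BTYNB, with 815 UMIs against 0, the interval reached down to 3.4, and for anti-PD-1, with 223 against 0 in only 20 cells, down to 1.66. In control the interval (-0.31 to 4.78) took in 0.

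Cxcl16 followed the same split and Cxcl10 did so only under BTYNB, as the plot of the Retnla split shows. Cxcl16 in Retnla- against Retnla+ cells was 70.6 against 9.98 CPM in control, 79.0 against 9.32 under BTYNB, 92.8 against 34.7 under anti-PD-1 and 64.8 against 15 under combination, with log2 ratios of 2.82, 3.08, 1.42 and 2.11. The interval took in 0 only under anti-PD-1 (3 Retnla+ UMIs). Cxcl10 was 30.3 against 26.6 CPM in control and 33.2 against 30.6 under combination. The log2 ratios were 0.19 (-0.92 to 1.49) and 0.12 (-0.34 to 0.59). Under anti-PD-1 the ratio was 0.51 (-1.41 to 3.59), with 2 Retnla+ UMIs. BTYNB was the exception, with 16.3 against 1.33 CPM, the latter from 1 UMI, and a log2 ratio of 3.61 (1.12 to 8.92).

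**Figure D2:**
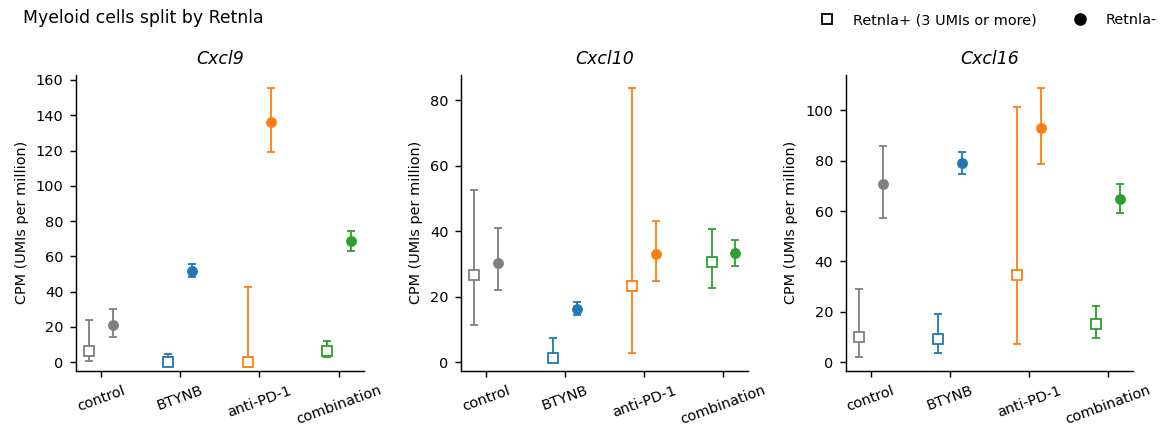
Level (CPM, 95% counting interval) of Cxcl9, Cxcl10 and Cxcl16 in Retnla+ (open squares, at least 3 Retnla UMIs) and Retnla- (filled circles) myeloid cells of each library. Cxcl9 in Retnla- cells reached 136 under anti-PD-1, and no Cxcl9 value of Retnla+ cells exceeded 6.65.

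cDC1 cells also carried Cxcl9, with 65.3 CPM under BTYNB (58.2 to 72.9) and 32.5 under combination (27.1 to 38.6), a log2 ratio of -1.01 (-1.32 to -0.71) for combination to BTYNB. Most of it lay in cells that also passed the myeloid gate, where the level was 137 CPM under BTYNB (201 cells) and 54.7 under combination (183 cells). In cDC1 cells outside the myeloid gate it was 22.6 and 20.2 CPM. The 3 cDC1 cells with most Cxcl9 held 55.6% of its UMIs under BTYNB and 44.1% under combination. The counting interval of the ratio is thus too narrow. A Cxcl9 UMI was found in 6.43% of cDC1 cells under BTYNB (4.57% to 8.76%). Under combination the share was 9.02% (6.70% to 11.8%), so the order of the shares was opposite to that of the levels. Myeloid cells outside the cDC1 gate had 18.7, 38.8, 133 and 59.4 CPM in control, BTYNB, anti-PD-1 and combination, the same order of libraries as the gate as a whole, with BTYNB now further below combination.

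Tumour cells carried little Cxcl9, at 0.747 CPM in control (0.564 to 0.97), 1.95 under BTYNB (1.61 to 2.35), 1.62 under anti-PD-1 (1.36 to 1.92) and 2.56 under combination (2.16 to 3.02). By summed UMIs the 3 treated libraries again lay above control. The log2 ratios were 1.39 (0.91 to 1.88) after BTYNB and 1.12 (0.66 to 1.60) after the antibody. For combination to anti-PD-1 the ratio was 0.66 (0.31 to 1.01), opposite in sign to that in myeloid cells, a difference that was not tested. A Cxcl9 UMI was found in 0.337% of tumour cells in control (0.216% to 0.502%) and 0.430% under anti-PD-1 (0.316% to 0.572%), intervals that overlapped. Under BTYNB the share was 0.776% (0.517% to 1.12%) and under combination 0.961% (0.694% to 1.30%), both above the control interval. These shares were taken at each cell's own depth. The median was 9783, 15221, 7160 and 11503 UMIs in control, BTYNB, anti-PD-1 and combination. After thinning every cell to 1000 UMIs the share was 0.0703% in control (0.0228% to 0.164%) and 0.0915% under anti-PD-1 (0.0439% to 0.168%). It was 0.223% under BTYNB (0.0963% to 0.439%) and 0.160% under combination (0.0644% to 0.330%). The thinned intervals overlapped, so no treated share lay clear of control at equal depth. The 3 tumour cells with most Cxcl9 held 39.3%, 47.8%, 38.1% and 38.5% of its UMIs in control, BTYNB, anti-PD-1 and combination. The counting intervals of these levels and ratios are thus too narrow. The summed level of 5 myeloid markers in the tumour gate was 11.8, 16.0, 27.1 and 24.4 CPM in control, BTYNB, anti-PD-1 and combination, and its part in these low levels was not tested. The tumour cell with most Cxcl9 in each library held 8, 20, 28 and 28 of its UMIs, with at most 1 UMI of Lyz2, Csf1r and C1qa together. Of these, the BTYNB cell had only 2 keratin UMIs among 15993. The combination cell had 43350 UMIs, against a median of 11503 in the gate. Whether each was a single tumour cell was not tested.

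Most Cxcl10 UMIs lay in tumour cells in every library. In exclusive assignment, where a cell counted for a gate only if it passed no other, tumour cells held 88.1% of all Cxcl10 UMIs in control, 65.6% under BTYNB, 89.1% under anti-PD-1 and 78.6% under combination. The same cells held 92.7%, 47.4%, 92.5% and 68.3% of the UMIs of all genes, so the Cxcl10 share lay above that of all genes under BTYNB and combination and below it in control and anti-PD-1. Its level in tumour cells was 36.7 CPM in control (35.4 to 38.1), 49.3 under BTYNB (47.5 to 51.2), 34.0 under anti-PD-1 (32.8 to 35.3) and 73.6 under combination (71.3 to 75.9). Combination was highest and anti-PD-1 lowest. The log2 ratio was 1.11 (1.04 to 1.18) for combination to anti-PD-1, 0.58 (0.51 to 0.65) for combination to BTYNB, 0.42 (0.35 to 0.50) for BTYNB to control and -0.11 (-0.19 to -0.04) for anti-PD-1 to control.

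Here too few cells held much of the transcript. One combination cell held 283 Cxcl10 UMIs and 28 Cxcl9 UMIs, and 1 BTYNB cell held 196 Cxcl10 UMIs. Without the 3 cells with most Cxcl10 in each library, combination to anti-PD-1 was 0.95 and BTYNB to control 0.33, both in the same direction and the first no longer past 2-fold. A Cxcl10 UMI was found in 25.1% of tumour cells under combination, 16.8% under BTYNB, 16.2% in control and 11.2% under anti-PD-1, the same order as the levels. After thinning every cell to 1000 UMIs the shares were 4.51%, 3.01%, 2.77% and 2.53%.

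In myeloid cells Cxcl10 was 29.7 CPM in control (22.1 to 39.0), 15.6 under BTYNB (13.7 to 17.6), 32.5 under anti-PD-1 (24.5 to 42.2) and 32.8 under combination (29.3 to 36.6). BTYNB was the low library, with log2 ratios of -0.93 (-1.37 to -0.47) to control and 1.07 (0.83 to 1.32) for combination to BTYNB. The first shrank to -0.32 without the 3 top cells of each library, and the second stayed at 1.02. These cells held 47.1% of the UMIs in control and 19.1% under BTYNB, so leaving them out had to raise the first ratio. Myeloid Cxcl10 was thus lowest under BTYNB, and myeloid Cxcl9 in control. Other cells carried Cxcl10 too. In B cells it was 17.2 CPM under BTYNB (15.1 to 19.6) and 52.1 under combination (44.4 to 60.7). In the same gate B markers summed to 2524 and 1029 CPM, tumour markers to 381 and 563 CPM and myeloid markers to 99.1 and 249 CPM, and their part in the difference was not tested. In T cells Cxcl10 was 41.2 and 35, a pair whose ratio took in 0 (-0.24, -0.71 to 0.21). The 34 Cxcl10 UMIs in the 18 mature DC of control came to 228 CPM, with 85.3% of them in 3 cells.

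Cxcl10 was found more often in tumour cells that had a Cxcl9 UMI than in those that had none. Of tumour cells with a Cxcl9 UMI, 50.0% had Cxcl10 in control (12 of 24), 53.6% under BTYNB (15 of 28), 44.7% under anti-PD-1 (21 of 47) and 73.8% under combination (31 of 42). Among tumour cells without Cxcl9 the shares were 16.0%, 16.5%, 11.1% and 24.6%. Cells with Cxcl9 were somewhat deeper, for example with a median of 13247.5 against 11473 UMIs under combination. In myeloid cells the shares with Cxcl9 were lower. They were 15.8% under BTYNB (16 of 101) and 20.8% under combination (20 of 96), against 3.17% and 9.21% without it. The BTYNB cells with Cxcl9 were deeper, at a median of 6259 against 4345 UMIs. In control the shares were 16.7% (2 of 12) and 7.50%, and under anti-PD-1 10.9% (5 of 46) and 6.51%. The intervals overlapped in control and anti-PD-1.

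**Figure D3:**
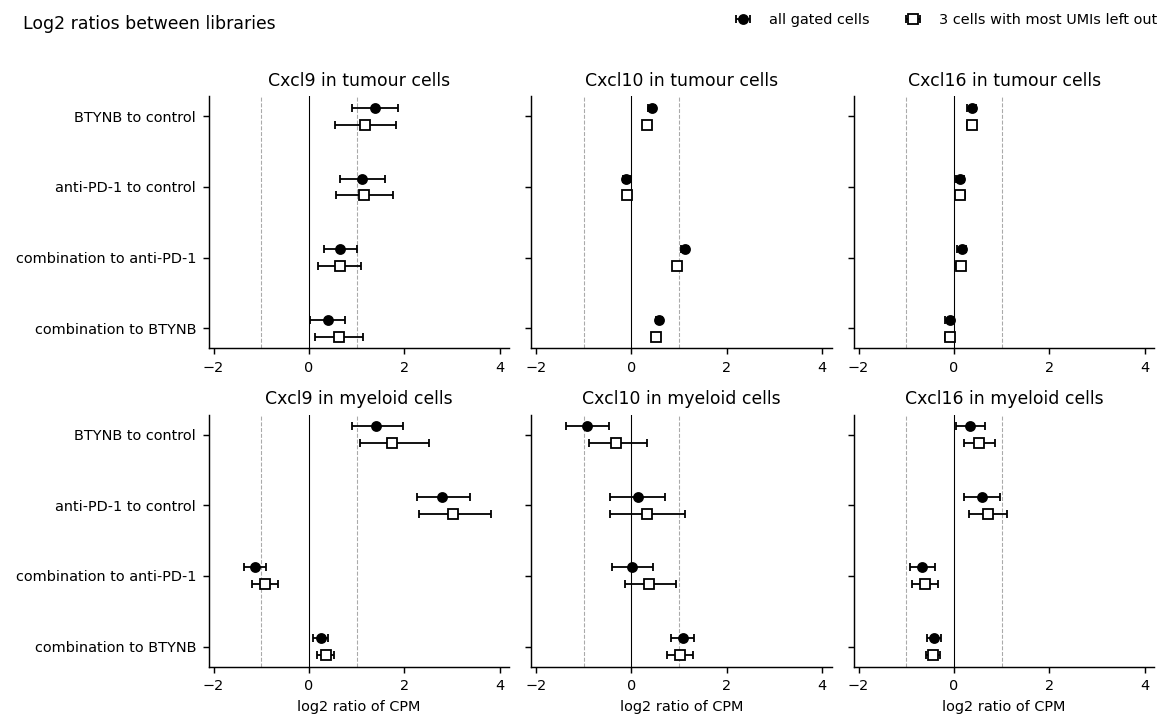
Log2 ratio of CPM between libraries (points, with 95% counting intervals) for Cxcl9, Cxcl10 and Cxcl16 in tumour and myeloid cells, with all gated cells (filled) and without the 3 cells of each library that held most UMIs of the gene (open), with dashed lines at 2-fold. The ratio of Cxcl9 for combination to anti-PD-1 was -1.14 in myeloid and 0.66 in tumour cells.

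Cxcl16 was the most widely found ligand. In tumour cells it was 24.2 CPM in control, 31.3 under BTYNB, 26.4 under anti-PD-1 and 29.5 under combination, with no ratio past 2-fold and the largest, 0.37 (0.28 to 0.47), for BTYNB to control. In myeloid cells it was 60.0 CPM in control (48.9 to 72.7), 75.8 under BTYNB (71.6 to 80.1), 89.9 under anti-PD-1 (76.3 to 105) and 56.8 under combination (52.1 to 61.8). Combination lay below both single agents, with log2 ratios of -0.66 (-0.92 to -0.40) to anti-PD-1 and -0.42 (-0.56 to -0.27) to BTYNB, both less than 2-fold. Mature DC had the highest level under BTYNB (416 CPM, 388 to 445) and under combination (336, 300 to 375), and 181 CPM in control from 27 UMIs in 18 cells. The log2 ratio of mature DC to myeloid cells was 2.45 (2.33 to 2.58) under BTYNB and 2.56 (2.36 to 2.76) under combination. In the 6 mature DC of anti-PD-1 there were only 2 UMIs. In cDC1 cells the level was 82.2 CPM under BTYNB and 74.6 under combination.

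Cxcl16 was spread over many cells. The 3 tumour cells with most of it held 0.597% to 1.58% of its UMIs, and no tumour cell held more than 11. Tumour cells that passed no other gate held 34.6% of the 4764 Cxcl16 UMIs of BTYNB, against 87.5% in control, 86.8% under anti-PD-1 and 52.3% under combination. All 4 shares lay below the share of all UMIs in tumour cells given above, and had the same libraries high and low.

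Adam10, which encodes the sheddase of CXCL16, was at 150, 161, 132 and 135 CPM in tumour cells of control, BTYNB, anti-PD-1 and combination. In myeloid cells it was 197, 144, 198 and 145 CPM, lower in both libraries with BTYNB, with log2 ratios of -0.45 for BTYNB to control and -0.45 for combination to anti-PD-1. The 5 myeloid markers of that gate summed to 2406, 1798, 2491 and 2104 CPM. They were also lower in both libraries with BTYNB, and their part in Adam10 was not tested.

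Under BTYNB and combination, mature DC that passed no other gate held 71.5% and 65.7% of all Ccl22 UMIs. Of all Ccl17 UMIs they held 39.7% and 27.7%, so most Ccl17 lay elsewhere. The same cells held 1.28% and 0.639% of the UMIs of all genes. By level, both genes were highest in mature DC in these 2 libraries. Ccl22 reached 485 CPM under BTYNB (455 to 517, 958 UMIs) and 416 under combination (376 to 459, 400 UMIs). In control it was 355 CPM, where 1 of the 18 cells held 35 of the 53 UMIs, and under anti-PD-1 all 5 UMIs came from 1 cell. The log2 ratio to myeloid cells was 6.48 under BTYNB and 7.44 under combination. For combination to BTYNB the ratio in mature DC was -0.22 (-0.40 to -0.05), but this sign was not stable: it was 0.43 with cells of more than 1 gate left out and 0.04 as a mean over cells.

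Ccl17 in mature DC was 87.2 CPM under BTYNB (74.6 to 101) and 86.3 under combination (68.7 to 107), a log2 ratio of -0.01 (-0.41 to 0.37). All 30 Ccl17 UMIs of the control mature DC lay in 1 cell, the same cell that held most Ccl22. A Ccl17 UMI was found in 24.0% of the mature DC with Ccl22 under BTYNB and in 34.7% under combination, against 4.35% and 7.50% of those without it. Cxcl16 was found in 83.8% and 82.7% of the mature DC with Ccl22, against 68.3% and 60.0% of those without.

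Outside mature DC, Ccl17 was at a low and even level in tumour cells, 0.667 CPM in control, 0.432 under BTYNB, 0.643 under anti-PD-1 and 0.681 under combination, with never more than 3 UMIs in a cell. Ccl22 in tumour cells rested on 8, 18, 3 and 21 UMIs. In myeloid cells Ccl22 was 1.75, 5.46, 0 and 2.39 CPM, and Ccl17 was 10.5, 5.03, 0.580 and 3.23 CPM, where all 18 control UMIs of Ccl17 lay in at most 3 cells.

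**Figure D4:**
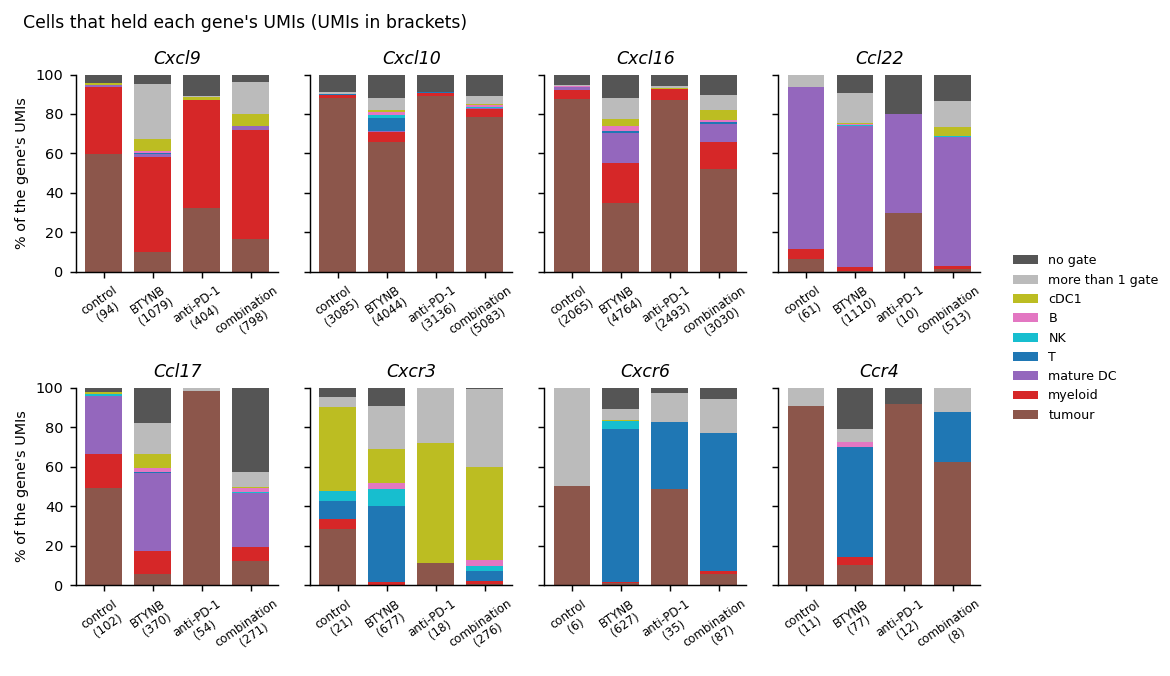
Share of each gene's UMIs (percent, stacked to 100) by the gate of the cell that held them, with cells of more than 1 gate and of no gate apart, and the gene's UMIs in the library in brackets. Tumour cells held 88.1% of Cxcl10 in control and 65.6% under BTYNB, and mature DC held 71.5% of Ccl22 under BTYNB.

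Among the receptors, Cxcr3 was found in T cells, NK cells and cDC1 cells. In T cells it was 36.7 CPM under BTYNB (32.6 to 41.3, 281 UMIs) and 19.0 under combination (12.4 to 27.8, 26 UMIs), with 2 UMIs in control and 0 under anti-PD-1. The log2 ratio for combination to BTYNB was -0.96 (-1.59 to -0.37) and shrank to -0.41 when cells of more than 1 gate were left out. T markers in the gate differed more between these libraries, at 2904 and 1021 CPM, and their part in it was not tested. In NK cells it was 24.5 CPM under BTYNB and 29.1 under combination, with a log2 ratio of 0.24 (-0.78 to 1.14). In cDC1 cells it was 42.2 CPM in control (19.3 to 80.1), 51.9 under BTYNB (45.7 to 58.8), 53.0 under anti-PD-1 (30.3 to 86.0) and 58.5 under combination (51.2 to 66.6). These 4 values overlapped, with intervals of all 4 ratios that took in 0. Within a library, cDC1 cells lay above T cells under BTYNB by a log2 ratio of 0.50 (0.25 to 0.75) and under combination by 1.63 (1.04 to 2.27).

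The Cxcr3 of the myeloid gate, 8.25 CPM under BTYNB and 10.8 under combination, lay mostly in the cDC1 cells inside that gate. Myeloid cells that also passed the cDC1 gate had 62.7 CPM under BTYNB and 65.5 under combination, and the other myeloid cells 1.63 and 1.58. Tumour cells, which should lack the receptor, had at most 0.0896 CPM of Cxcr3.

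Cxcr6 was almost confined to T cells by level. It was 16.1 CPM in control (3 UMIs), 67.7 under BTYNB (62.0 to 73.8, 518 UMIs), 95.4 under anti-PD-1 (54.5 to 155, 16 UMIs) and 53.9 under combination (42.4 to 67.7, 74 UMIs). BTYNB, anti-PD-1 and combination overlapped in part, and the log2 ratio for combination to BTYNB was -0.33 (-0.70 to 0.03). It was 1.0 with cells of more than 1 gate left out, so no direction can be given. NK cells had 9.89 CPM under BTYNB and none under combination (49 cells), and the log2 ratio of T to NK cells under BTYNB was 2.78 (2.22 to 3.39).

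Ccr4 was the rarest gene, with 47 UMIs in T cells of BTYNB (6.15 CPM, 4.52 to 8.17), 2 under combination and none in control or anti-PD-1. A count of 0 in the 22 control and 30 anti-PD-1 T cells allows up to 16.1 and 17.9 CPM (3 counts of the total), above the BTYNB level, so a difference was not detectable at this depth. After thinning to 1000 UMIs, which left out 30 BTYNB T cells, 4.28% of BTYNB T cells had a Cxcr3 UMI, 5.30% a Cxcr6 UMI and 0.653% a Ccr4 UMI. Under combination the shares were 2.53%, 6.33% and 0%. In tumour cells, at a median of 7160 to 15221 UMIs before thinning against 2149 for BTYNB T cells, the thinned shares of the 3 receptors were between 0% and 0.0687% in every library.

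In the BTYNB library, where T cells were numerous, the receptors differed between T cell subsets, as the plot of T subsets shows. T cells were split into 1202 with Cd8a or Cd8b1 and no Cd4, 126 with Foxp3, the factor of regulatory T cells, 343 other cells with Cd4 (no Cd8a or Cd8b1 in these or the Foxp3 cells) and 810 that fell in none of these. Cxcr3 was 96.1 CPM in Foxp3 cells (70.8 to 127), 67.6 in other Cd4 cells (51.8 to 86.6) and 24.6 in CD8 cells (19.8 to 30.1). The log2 ratio to CD8 cells was 1.97 (1.43 to 2.49) for Foxp3 cells and 1.46 (0.97 to 1.94) for other Cd4 cells, while the Foxp3 and other Cd4 cells overlapped (0.51, -0.07 to 1.07). Ccr4 had the same order, with 28.0, 16.3 and 1.07 CPM from 14, 15 and 4 UMIs, and its Foxp3 and other Cd4 cells overlapped as well (0.78, -0.38 to 1.93). Cxcr6 had the opposite order, with 73.7 CPM in CD8 cells, 65.4 in other Cd4 cells and 38.0 in Foxp3 cells, where the CD8 and Foxp3 cells differed by a log2 ratio of 0.96 (0.28 to 1.71) and the CD8 and other Cd4 cells did not differ beyond their intervals (0.17, -0.23 to 0.60).

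**Figure D5:**
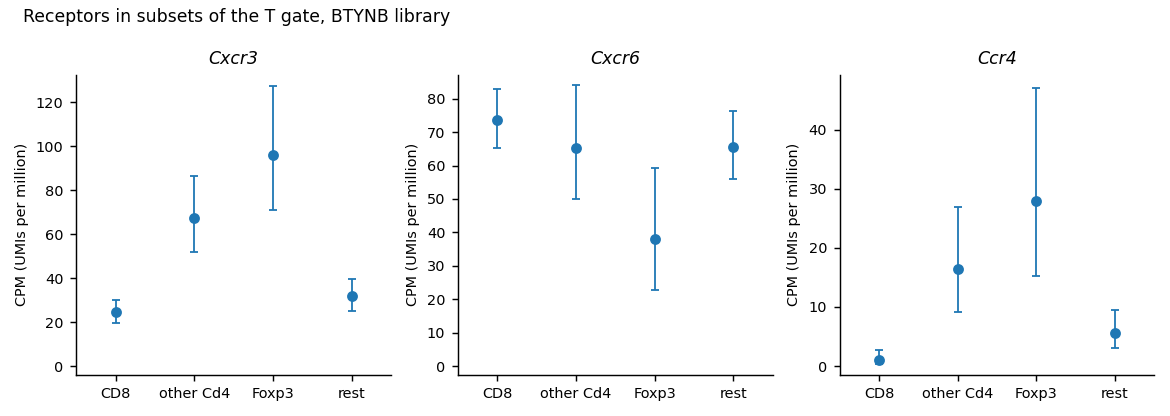
Level (CPM, 95% counting interval) of Cxcr3, Cxcr6 and Ccr4 in subsets of the T cells of the BTYNB library. Cxcr3 was 96.1 in Foxp3 cells and 24.6 in CD8 cells, and Cxcr6 73.7 in CD8 and 38.0 in Foxp3 cells.

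Under combination, Cxcr6 in the 91 CD8 cells was 88.9 CPM (68.9 to 113) and Cxcr3 17.3 (9.19 to 29.5), with 10 other Cd4 and 11 Foxp3 cells that were too few to place. Under anti-PD-1, 15 of the 16 Cxcr6 UMIs lay in 22 CD8 cells. The receptors were seen in the same cell at times: of BTYNB T cells with Cxcr3, 20.9% had Cxcr6, against 10.7% of those without, at median depths of 2723 and 2123 UMIs.

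Some ligand UMIs lay in the T gate and are given with the markers that moved with them. Under combination, 27 of the 34 Cxcl9 UMIs of the T gate lay in 1 cell, which held 11 Cd3 UMIs and 56 UMIs of Lyz2, Csf1r and C1qa. Cxcl16 in T cells was 15.3 CPM under BTYNB and 30.6 under combination (log2 ratio 1.0, 0.46 to 1.52). In the same gate, 5 tumour markers summed to 156 and 364 CPM and 5 myeloid markers to 133 and 354 CPM, both higher under combination, and their part in it was not tested.

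How often the 8 genes passed a 2-fold difference was set beside the same share over all genes with at least 20 UMIs in the libraries compared. In tumour cells, 2 of 6 members passed for BTYNB to control (Cxcl9 and Ccl22, 5.37% of all genes), 2 of 6 for anti-PD-1 to control (Cxcl9 and Cxcr6, 7.19%), 2 of 6 for combination to anti-PD-1 (Cxcl10 and Ccl22, 8.08%) and 0 of 5 for combination to BTYNB (2.20%). All 6 were higher in the first-named library, and the Ccl22 and Cxcr6 values rested on 3 to 21 UMIs a library. In myeloid cells, 4 of 7 passed for BTYNB to control (18.8% of all genes), with Cxcl9, Cxcr3 and Ccl22 higher and Ccl17 lower. Only Cxcl9 of 3 passed for anti-PD-1 to control (5.44%). For combination to anti-PD-1, 3 of 6 passed (12.7%), with Cxcr3 and Ccl17 higher and Cxcl9 lower, and for combination to BTYNB 3 of 7 (8.16%), with Cxcl10 higher and Ccl22 and Cxcr6 lower. Against anti-PD-1, Ccl17 rested on 31 against 1 UMIs, with an interval that took in 0 (-0.11 to 7.82). Cxcr3 rested there on 104 against 3 UMIs, of which 91 and 3 lay in cDC1 cells of the gate. Against BTYNB, Cxcr6 rested on 9 against 32 UMIs, with an interval that took in 0 (-2.30 to 0.05).

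For combination to BTYNB, the comparison open to the rarer cells, 1 of 5 members passed in mature DC (Cxcl9 higher, 14.9% of all genes). In T cells 3 of 7 passed (19.8%), with Cxcl9 and Cxcl16 higher and Ccr4 lower. Of the 34 combination UMIs of Cxcl9 there, 27 lay in 1 cell, and Ccr4 rested on 2 against 47 UMIs. In NK cells 2 of 5 passed (19.5%), with Cxcl16 higher and Ccl22 lower, the latter from 1 against 21 UMIs (-7.04 to 0.97). In cDC1 cells 3 of 6 passed (3.63%), with Cxcl10 higher (1.42, 0.88 to 1.99) and Cxcl9 (-1.01) and Ccl17 (-1.66, -2.53 to -0.88) lower. These 3 ratios rested on few cells, and their intervals are too narrow. The 3 top cells held 55.6% of Cxcl9, 54.8% of Cxcl10 and 57.6% of Ccl17 UMIs under BTYNB. Under combination they held 44.1%, 60.9% and 82.4%. The members are too few to call the shares of members past 2-fold different from those of all genes. The median gene moved by at most 0.09 on the log2 scale in these 12 comparisons.

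Of 12 genes of the interferon-gamma axis, 9 could be compared in tumour cells. One, Irf8, passed 2-fold for BTYNB (1.06) and for anti-PD-1 to control (1.12) at levels of 0.813 to 1.77 CPM, and none passed for combination against either agent. The medians of the list were 0.29, 0.30, 0.20 and 0.13 for the 4 contrasts, beside 0.03, -0.06, 0.09 and -0.01 for all genes. In myeloid cells, Jak2 (1.42) and Irf8 (1.36) were higher for BTYNB to control, and Irf8 (1.16) for anti-PD-1 to control. Irf8 is also a marker of cDC1 cells, of which the myeloid gate held 1, 201, 10 and 183. In myeloid cells outside the cDC1 gate Irf8 was 105, 144, 228 and 117 CPM and Jak2 was 49.6, 99.3, 50.1 and 67.7 CPM, so that Irf8 was no longer past 2-fold for BTYNB to control. Il12b, a subunit of interleukin 12, was lower for combination to anti-PD-1 (-2.17, 21 against 17 UMIs in unequal totals). Ifng itself, the main inducer of Cxcl9, was at 0, 37.7, 23.9 and 42.3 CPM in T cells of control, BTYNB, anti-PD-1 and combination, where the 0 allows up to 16.1 CPM and the anti-PD-1 level rested on 4 UMIs, and Cxcl11, the third CXCR3 ligand, stayed at or under 0.580 CPM in tumour, myeloid, mature DC and T cells. In NK cells Ifng was 74.0 CPM under BTYNB and 26.6 under combination (-1.47, from 11 UMIs under combination). NK markers in that gate were lower as well, at 4283 and 1598 CPM, with tumour markers at 162 and 324 CPM and myeloid markers at 82.4 and 380.1 CPM, and their part in it was not tested. Il12b in mature DC was 138 CPM under BTYNB and 346 under combination (1.33), beside Jak2, which was lower (-1.04).

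Of 10 genes of the CCL17 and CCL22 axis, none of the 6 that could be compared passed 2-fold in mature DC for combination to BTYNB. Relb, an NF-kappa-B subunit of mature DC, was 537 and 459 CPM there. The inducing cytokines were hardly seen: Il4 was under 1 CPM in tumour, myeloid, mature DC and T cells of every library, and Il13 reached 2.88 CPM in BTYNB T cells (22 UMIs). In myeloid cells Il10 was lower in both libraries with BTYNB, with 26.2, 10.7, 35.4 and 13.2 CPM in control, BTYNB, anti-PD-1 and combination (-1.29 for BTYNB to control, -1.42 for combination to anti-PD-1), and Irf4 was higher for combination to anti-PD-1 (1.31). Myeloid markers of the gate were lower in both libraries with BTYNB as well, C1qa among them at 1152, 512, 1203 and 873 CPM. Their part in Il10 was not tested. In tumour cells, Csf2 stood out under anti-PD-1, with 69 UMIs (0.837 CPM) against 1 to 4 in the others.

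Of 6 genes that handle the ligands, Dpp4, a protease that trims CXCL9 and CXCL10, was higher in the libraries with BTYNB. In myeloid cells it was 17.5, 80.1, 19.2 and 76.0 CPM, with log2 ratios of 2.20 for BTYNB to control and 1.99 for combination to anti-PD-1. The cDC1 cells inside the gate held much of it, at 391 CPM under BTYNB and 288 under combination. Outside the cDC1 gate Dpp4 in myeloid cells was 15.8, 42.4, 13.7 and 40.1 CPM, still higher in both libraries with BTYNB. In tumour cells Dpp4 was 1.24 higher for combination to anti-PD-1 at levels of 0.885 and 2.10 CPM, and Ackr1, a scavenging receptor, 1.09 higher for BTYNB to control.

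Of 11 other T cell chemokines, 10 were in the files. In tumour cells 4 of 6 were past 2-fold for BTYNB to control, all higher: Cxcl13 (2.34), Ccl4 (1.28), Ccl20 (1.22) and Ccl3 (1.19). For anti-PD-1 to control 3 of 7 were higher, Ccl8 (1.86), Ccl4 (1.79) and Ccl3 (1.33), all at 0.194 to 2.49 CPM under anti-PD-1. For combination to anti-PD-1, Ccl20 (1.46) and Cxcl12 (1.20) were higher. Ccl5, another chemokine that attracts T cells, was 53.0, 131, 40.0 and 165 CPM in myeloid cells (1.30 for BTYNB to control, 2.04 for combination to anti-PD-1), and Cxcl12 was lower in the same contrasts (-4.14 and -2.23). The summed myeloid markers of the gate were lower in these contrasts too, and their part in Cxcl12 was not tested. Without the cDC1 cells of the gate Ccl5 was 53.1, 131, 41.1 and 172 CPM. NK markers in the myeloid gate were also higher in both libraries with BTYNB, at 22.7, 95.4, 24.4 and 81.4 CPM. So were T markers, at 27.4, 76.6, 30.8 and 71.4 CPM. Both were highest under BTYNB and Ccl5 under combination, and their part in Ccl5 was not tested. In mature DC Ccl3 was higher for combination to BTYNB (1.89), and Ccl5 was above every member, with 7036 CPM under BTYNB and 5408 under combination.

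Of 10 other receptors of T cells, 4 were past 2-fold in T cells for combination to BTYNB, all lower: Cxcr5 (-2.14), Cxcr4 (-2.12), S1pr1 (-1.67) and Ccr7 (-1.41). The last pair keeps naive T cells in circulation and lymph nodes. The T cells of BTYNB had a median of 2149 UMIs against 7500 under combination. T markers in the gate were at 2904 and 1021 CPM, and tumour and myeloid markers were higher under combination. The part of depth and of these markers in the difference was not tested.

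The genes whose pattern was most like each member were taken over 28 pairs of gate and library among 15339 genes, by Pearson's r of log2(CPM + 1). Gates overlap and pairs share libraries, so r is a description. Ccl22 was followed by Mreg (0.97), Tmem150c (0.93) and Il4i1 (0.93), and Ccl17 by Nfkbib (0.88), Scin (0.87) and Ccl22 itself (0.87). Cxcr6 was followed by Trgc2 (0.97), Cd3d (0.95) and Cd3g (0.94), of which the last pair defined the T gate. Cxcr3 was followed by Med12l (0.90), Clnk (0.88) and Septin6 (0.88). Cxcl16 was followed by Mab21l3 (0.81), H2-M2 (0.80) and Syngr2 (0.79), Cxcl9 by Rasgef1b (0.80), Lilra5 (0.75) and Hpgds (0.74), and Cxcl10, with the loosest match, by 4930522L14Rik (0.68), Tsku (0.65) and Mtx3 (0.65). Among the members, Cxcl9 and Cxcl10 had an r of 0.13 over these pairs, beside their shared cells within the tumour gate. Ccr4 had too few UMIs.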

How the data were processed

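Cells from ascites were captured on the BD Rhapsody HT system, and the authors counted UMIs with the vendor's sequence analysis pipeline. The deposited matrices hold raw counts per gene and cell, as whole numbers, 1 matrix per library. The submitters' processing notes name the build GRCm39. The study's doublet calls were not used here. Total counts were 80499877 (control), 114600397 (BTYNB), 89236522 (anti-PD-1) and 78603888 for the combined treatment.

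Captured cells with under 200 genes or over 33% mitochondrial UMIs were removed, as in the study. Scrublet (in scanpy 1.11.5) marked under 0.5% of cells in 2 libraries and was used only as an alternative. UMIs were summed per library and gate and given as CPM with exact Poisson intervals. Log2 ratios carry the exact interval of a share of 2 counts, and shares of cells the Clopper-Pearson interval. A ratio needed 20 cells per library and 20 UMIs over both, and a gene at 0 in 1 library was set to 3 counts for the 2-fold counts. Shares of cells were thinned to 1000 UMIs only where the text says so. All others, with those of cells that held a pair of genes, were taken at each cell's own depth. The ratio code was tested on simulated data. The genes, gates and lists were chosen with earlier results of these data known. Genes of the lists are named where past 2-fold, at most 4 a list and contrast, by size, beside genes given as levels. Analyses used Python 3.11.15, scipy 1.17.1 and pandas 2.3.3.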

Additional observations from a re-analysis of the deposited data

Results flagged for a closer look

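In these results the sign differed between cell types or between contrasts, with both counting intervals on opposite sides of 0. There was 1 library per group, so none of these differences was tested, and the values are differences of log2 ratios.

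For combination to anti-PD-1, Cxcl9 was higher in tumour cells (0.66) and lower in myeloid cells (-1.14), a difference of 1.80. In myeloid cells, Cxcl9 was higher for BTYNB to control (1.41) and lower for combination to anti-PD-1 (-1.14), a difference of 2.55. Both contrasts add BTYNB, without and with the antibody.

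For BTYNB to control, Cxcl10 was lower in myeloid cells (-0.93) and higher in T cells (1.94), a difference of -2.87, where the control T cells held only 2 UMIs in 22 cells.

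For combination to BTYNB, Cxcl16 was lower in myeloid cells (-0.42) and higher in T cells (1.0), a difference of -1.42, and higher in NK cells (1.60), a difference of -2.02. In mature DC it was lower (-0.31), with differences of -1.31 from T cells and -1.91 from NK cells, but this sign was not stable: it was 0.29 with cells of 1 gate only and 0.00872 with gate limits doubled. Of the combination cells, 41.1% in the T gate and 32.7% in the NK gate also passed another gate.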

How the results depend on the processing

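Each of 31 log2 ratios was recomputed under 8 other settings, and in myeloid cells also without cells that carried neutrophil markers. The last, and leaving out the 3 cells with most UMIs, were chosen after seeing the data. Direction was kept in 31 of 31 without the quality limits and relative to the median gene, in 30 of 31 with the 5% highest doublet scores left out, with a common UMI floor and without the 3 top cells, and in 12 of 12 without neutrophil-marked cells. It turned in 5 of 30 with cells of 1 gate only, in 4 of 31 as means over cells and in 3 of 31 with gate limits doubled. With cells of at least 5115 UMIs only, Cxcl9 in myeloid cells was 2.0 for BTYNB to control and -0.19 for combination to BTYNB, Cxcl16 was 0.69 in myeloid cells for BTYNB to control and -0.0711 in mature DC, and Ccl17 in mature DC -0.50. With cells of 1 gate only, combination to BTYNB was 0.60 for Cxcl9 in myeloid cells, 0.29 for Cxcl16, 0.65 for Ccl17 and 0.43 for Ccl22 in mature DC, and 1.0 for Cxcr6 in T cells. With gate limits doubled, Cxcl16 and Ccl22 in mature DC were 0.00872 and 0.00199. As means over cells, Cxcl9 was 0.69 in myeloid cells for combination to BTYNB and 0.30 in tumour cells for combination to anti-PD-1. Cxcl10 in tumour cells was then 0.94 and 0.39 for combination to anti-PD-1 and to BTYNB, and Cxcl16 in myeloid cells -0.21, Ccl17 0.50 and Ccl22 0.0355 in mature DC for combination to BTYNB. Relative to the median gene, Cxcl10 in tumour cells was 1.03 for combination to anti-PD-1. Without the 3 top cells, Cxcl10 in tumour cells was 0.95 for combination to anti-PD-1 and 0.33 for BTYNB to control, Cxcl10 in myeloid cells -0.32 for BTYNB to control and Ccl22 in mature DC -0.57. The causes were not tested. Cxcr3 in NK cells could not be computed with cells of 1 gate only. The share of all genes past 2-fold ran from 0.351% to 14.2% with at least 100 UMIs and from 8.80% to 23.0% with at least 1. No paired analysis was possible because each group has 1 library. Depth limits the T, NK and mature DC gates of control and anti-PD-1, which held 6 to 30 cells.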

Other observations

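Part of the Ccl17 lay in cells outside every gate. In combination these cells held 42.4% of the library's 271 Ccl17 UMIs, against 27.7% in mature DC of 1 gate, and in BTYNB 17.8% against 39.7%. Of the combination cells with at least 2 Ccl17 UMIs, 9 of 34 passed no gate, and they held 103 Ccl17 UMIs. In BTYNB 9 of 54 did, with 48 Ccl17 UMIs. Together the 9 combination cells held 60 UMIs of Ccl22, 47 of Mgl2, 28 of Cd209a, 39 of Clec7a, 24 of Plet1 and 19 of Ccr7, but 0 of Fscn1, which the mature DC gate requires. The 9 BTYNB cells held 141 UMIs of Mgl2, 20 of Cd209a, 151 of Clec7a and 28 of Plet1, with 7 of Ccl22 and 41 of Ccr7. Mgl2 and Cd209a encode lectins of type 2 dendritic cells and macrophages. These genes were chosen after their values were seen, and no cell type is given to these cells.

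In anti-PD-1, 98.1% of the 54 Ccl17 UMIs lay in tumour cells, which held 92.5% of the UMIs of all genes, and their level in CPM was like that of the other libraries.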
